A study of Mus musculus with 7 samples.

Results

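The genes described here encode the core of the spliceosome, the machine that removes introns from pre-messenger RNA, and the SR proteins that guide it. They were chosen by symbol, as the rows of the count table named for the Sm proteins, the U1 and U2 small nuclear ribonucleoprotein (snRNP) proteins, the SF3a and SF3b complexes, U2AF, the SR proteins and the PRPF proteins. All 37 listed symbols were found among the 26586 gene symbols of the table. The data are RNA sequencing counts from 7 single mouse embryos of the C57BL/6 background at the morula stage, 3 days post coitum, collected from the oviduct or uterus of L13a(+/-) mothers in a cross between L13a+/- mice. L13a is taken here as the gene Rpl13a, for ribosomal protein L13a of the large subunit. The promoter or design of the mutant allele is not stated. The labels form 1 group with numbers 1 to 7, called replicates 1 to 7 here, and give no genotype, sex, litter or treatment group, so an embryo may hold any genotype that the cross allows and no groups were compared. Nothing in the labels says that the embryos came from separate mothers, so they may not be independent. With 1 library per embryo, the spread between embryos may include technical spread.

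Splicing proceeds in steps that these proteins carry out in order. Rings of Sm proteins form around the snRNAs and hold the snRNPs together. U1 marks the 5′ splice site. U2AF and then the U2 snRNP, with SF3a and SF3b, mark the end of the intron and its branch point. The U4/U6.U5 particle, which carries most of the PRPF proteins, brings the catalytic RNAs, and the complex around Prpf19 joins for activation. SR proteins bind exons through an RNA recognition domain and recruit the other parts through stretches rich in arginine and serine. In the mouse the embryo's own genome is switched on during cleavage, and its transcripts need splicing while RNA stored in the oocyte is being cleared.

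Libraries differed strongly in depth. The total count ran from 139619 in replicate 6 to 33123742 in replicate 4, a 237-fold range. Levels are in CPM, the count per 1000000 counts of the library. In these units 1 count equalled 7.16 CPM in replicate 6 and 0.0302 CPM in replicate 4. A count of 0 allows up to 3 counts, which is 21.5 CPM in replicate 6, 4.13 in replicate 3, 2.62 in replicate 1, 1.09 in replicate 5 and from 0.0906 to 0.182 CPM in replicates 2, 4 and 7. These limits and the intervals below cover counting error only, since the reads carry no molecular identifiers. Markers of other cells and stages also differed between libraries. Summed over 10 oocyte markers, the level was lowest in replicate 4 (38.5 CPM, 8 of 10 counted) and highest in replicate 7 (12628 CPM, 10 of 10). Summed over 8 trophectoderm markers it was highest in replicate 4 (3202 CPM, 7 of 8 counted, Elf5 at 0 in every embryo) and 0 in replicates 1 and 6, and 6 inner cell mass markers summed to 992 CPM in replicate 4 (6 of 6 counted) and to 0 in replicate 6. The 6 oviduct and uterine epithelium markers summed to 2650.1 CPM in replicate 6 (2 of 6 counted), 1512 CPM in replicate 2 (6 of 6) and 1088 CPM in replicate 1 (3 of 6), and to at most 164 CPM in the other embryos. Replicate 6 also held the highest level of 6 stroma and muscle markers (4348 CPM, 2 of 6 counted) and of the 6 blood and immune markers in the table (129 CPM, 1 of 6 counted). In replicate 3 the epithelium, stroma and blood lists summed to 0 CPM. Of 6 cumulus and granulosa markers 5 were at 0 in every embryo. The part of these cells and of depth in the results below was not tested. Since whole embryos were lysed, fewer cells of a kind and less RNA per cell cannot be told apart.

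Splicing genes were counted more widely in some embryos than in others. All 37 had a count in replicates 2 and 4, where 72.1% and 84.0% of the 11810 genes with a mean of at least 1 CPM did. In replicate 7 it was 36 of 37 (69.5% of all genes tested), in replicate 5 it was 24 (27.7%), in replicate 1 it was 23 (41.7%), in replicate 3 it was 15 (29.0%) and in replicate 6 it was 11 (14.8%). All 37 members passed that filter on mean level. The members are broadly expressed genes and the comparison was not matched for level, so nothing particular to them follows from these shares. After thinning every library at random to the 139619 counts of replicate 6, the numbers were 14, 34, 13, 37, 19, 11 and 27 in replicates 1 to 7, against 33.1, 57.7, 24.0, 68.7, 19.6, 14.8 and 55.6% of all genes tested. Replicate 4 thus still had all 37 at equal depth, and replicate 5 had more members than replicate 1 although fewer of all genes.

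**Figure D1:**
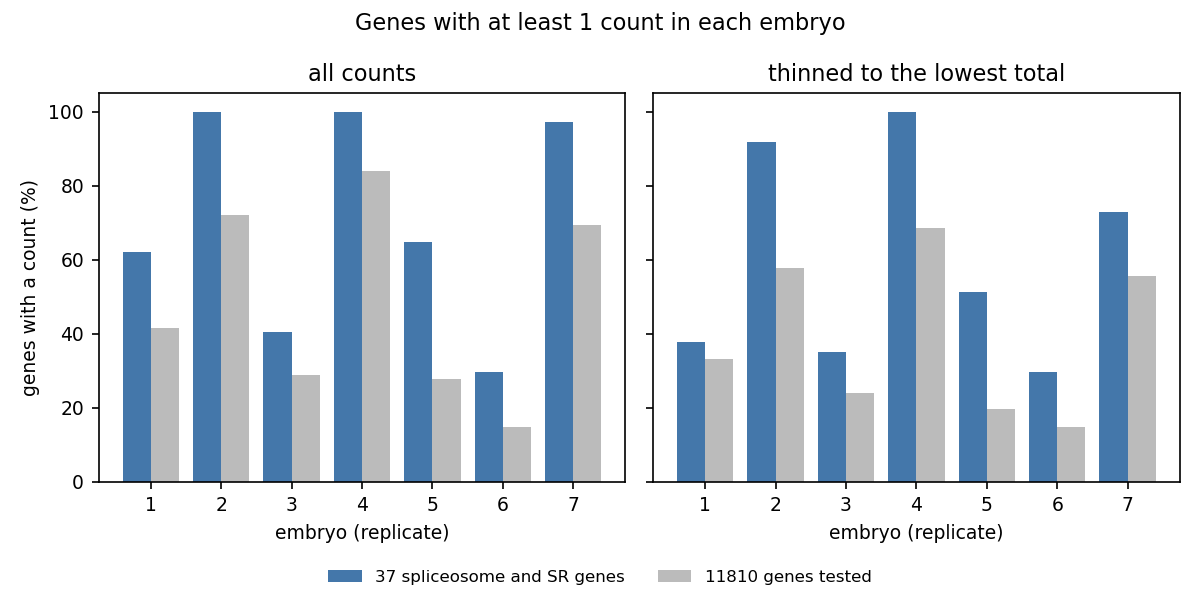
Share of genes with at least 1 count in each embryo, for the 37 spliceosome and SR protein genes (blue) and the 11810 genes tested (grey), with all counts on the left and after thinning every library to 139619 counts on the right. The bars of replicates 2, 4 and 7 are the highest in both panels, and the blue bar of replicate 4 stays at 100% after thinning.

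Only Snrpg and Sf3b1 had a count in every embryo, which is 2 of 37 beside 3.69% of all genes tested. After thinning the same number, 2, had a count everywhere (2.21% of all genes). Without replicate 6, the library of lowest depth, 9 members had a count in each of the others, and without replicates 3 and 6, an alternative chosen after seeing the data, 17 did. The shares of all genes tested in these smaller sets were not computed, so nothing particular to the members follows from these numbers. At the other end, Prpf6 was counted in 2 embryos and U2af1, Prpf3 and Prpf31 in 3. The highest CPM of 18 members fell in replicate 4 (29.6% of all genes tested had theirs there), and that of 5 members in replicate 2 (18.6%). No member had its highest CPM in replicate 7, where 19.2% of all genes tested did.

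Together the 37 genes took 0.174% of the counts of replicate 1 (95% Clopper-Pearson interval 0.167 to 0.182), 0.483% of replicate 2 (0.480 to 0.487), 0.453% of replicate 3 (0.438 to 0.469), 0.974% of replicate 4 (0.971 to 0.978), 0.554% of replicate 5 (0.546 to 0.563), 0.439% of replicate 6 (0.405 to 0.475) and 0.298% of replicate 7 (0.296 to 0.301). The share in replicate 4 was therefore the highest and that in replicate 1 the lowest, with intervals that did not overlap. The largest share held by a single gene was highest in replicates 6, 3 and 1, the libraries of lowest depth. Sf3b2 alone held 37.03% of the members' counts in replicate 6, Snrpe 33.5% in replicate 3 and Snrpg 29.6% in replicate 1. The largest share of a single gene was 20.9% in replicate 5 (Snrpg) and 20.5% in the deep replicate 2 (Sf3b5). It was 16.7% in replicate 4 (Snrpb) and 13.6% in replicate 7 (Snrpg). The median CPM over the 37 genes was 2.62, 75.6, 0, 190, 8.32, 0 and 42.2 in replicates 1 to 7, beside medians of 0, 14.2, 0, 19.9, 0, 0 and 12.1 over all genes tested.

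**Figure D2:**
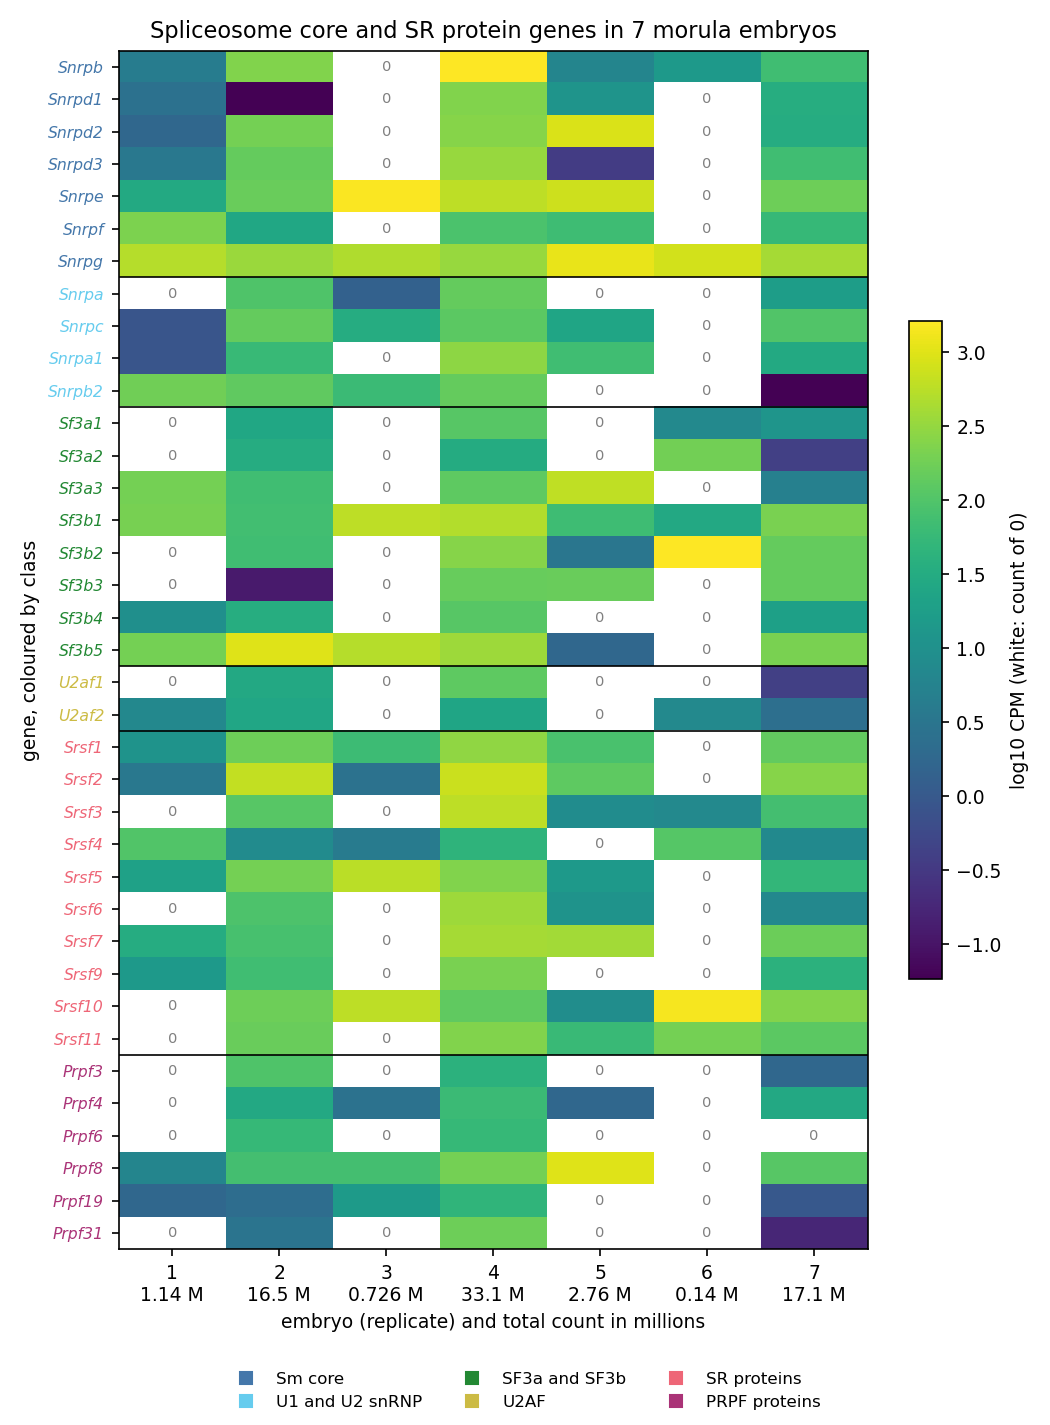
Level of each of the 37 genes (rows, grouped by class) in each embryo (columns, with the total count of the library) as log10 CPM, with white cells marked 0 for a count of 0. Columns 2, 4 and 7 are nearly filled, columns 3 and 6 are mostly white, and Snrpg and Sf3b1 are the rows with no white cell.

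The Sm genes encode the 7 proteins of the ring that binds the Sm site of U1, U2, U4 and U5 snRNA. Snrpg, which encodes SmG, was the most even of all members. It stood at 515, 350, 475, 340, 1156, 824 and 406 CPM in replicates 1 to 7, from 115 counts in replicate 6 to 11246 in replicate 4. Replicate 5 was the highest and replicate 6 the next. Scaled with TMM factors, which set libraries to a common level, its log2 CPM were 8.96, 8.77, 8.61, 8.86, 10.44, 8.94 and 8.71, with a standard deviation (SD) of 0.63 (n = 7). That was the fourth smallest SD among the 11810 genes tested, rank 4 after Eif1, Serf2 and Alg13. Among the 39 other genes whose mean log2 CPM lay within 0.5 of that of Snrpg, 1 had a smaller SD, and their median SD was 2.20. The SD of Snrpg was 0.14 without replicate 5 and 1.07 with DESeq2 size factors (rank 12). After thinning its SD was 0.62, but its rank was 2815 of 12236 genes, and the median SD of all genes was then 1.22. Per length of the exon union Snrpg was also the most abundant member on average, at 370 ± 192 RPKM (CPM per kilobase of exon, SD, n = 7).

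The coding sequence of Snrpg has an exact copy elsewhere in the genome. The gene lies on chromosome 6 of GRCm38 (chr6:86371304-86379328, plus strand, ENSMUSG00000057278.8). Its whole coding stretch of 231 nucleotides is identical in the processed pseudogene Gm8186 on chromosome 17 (chr17:26098991-26099221, minus strand), which has no row in the count table. Reads from that stretch match both places, and the rest of the 1570 bp of Snrpg exons lies outside it. The sequence is shown because it is shared base for base, with the start and stop codons in capitals.
Snrpg and Gm8186: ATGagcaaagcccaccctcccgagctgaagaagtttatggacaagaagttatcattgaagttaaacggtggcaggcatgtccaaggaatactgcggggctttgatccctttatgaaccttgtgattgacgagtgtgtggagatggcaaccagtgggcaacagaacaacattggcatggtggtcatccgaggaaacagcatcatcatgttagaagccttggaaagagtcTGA

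Snrpe, which encodes SmE, was the next most abundant per length of the exon union, at 334 ± 399 RPKM (SD, n = 7). With the longest annotated transcript as the length, Snrpe stood at 2272, 887 and 1106 RPKM in replicates 3 to 5. Snrpg stood at 451, 322 and 1096 RPKM there. On that length Snrpe had the higher mean, although Snrpg was higher in the other embryos. The levels of Snrpe were 28.8, 154, 1519.9, 593, 740, 0 and 172 CPM in replicates 1 to 7. It was thus highest in replicate 3, where it had 1103 counts, and uncounted in replicate 6.

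Other members also had near-identical copies, and how often genes outside this group have them was not measured. Of the 37 members, 15 matched at least 1 other annotated gene on the same strand. A match had an identity of 95% or more over 100 bp or more of transcript. There were 27 matches in all, 25 of them to pseudogenes. The match of Snrpa1, Gm45213, shares 148 bp of exon with Snrpa1 itself on the same strand, so it is no copy elsewhere. Only 2 of the 27 had a row in the table, Gm14277 (like Snrpd1) with 78 counts over all embryos and Gm5446 (like Srsf10) with 46. The handling of reads that fit several places or several genes is not stated, so the levels of these 15 members are uncertain to that extent. Sf3b1 and the other 21 members had no such match.

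The other Sm genes were far less even than Snrpg. Snrpb (SmB) was at 4.37, 238, 0, 1623, 6.15, 14.3 and 69.7 CPM in replicates 1 to 7, so replicate 4 stood far above the rest. Snrpd2 (SmD2) had the largest SD of log2 CPM of any member, 5.10, with 1.75, 193, 0, 250, 915, 0 and 33.1 CPM, and was highest in replicate 5. Snrpd3 (SmD3) reached 336 CPM in replicate 4 and 144 in replicate 2, but had 1 count (0.362 CPM) in replicate 5. Snrpd1 (SmD1) had 7901 counts in replicate 4 and 1 count in replicate 2, a library with 16452890 counts in which Snrpd2 had 3168. Snrpf (SmF) peaked in replicate 1 at 212 CPM. The exons of Snrpf overlap those of Ccdc38 on the other strand by 567 bp, and Ccdc38 had 18 counts at most, in replicate 2. In replicates 3 and 6 only 2 of the 7 Sm genes were counted, Snrpe and Snrpg in replicate 3 and Snrpb, with 2 counts, and Snrpg in replicate 6.

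The ring holds its 7 proteins in equal number, and their transcripts were not equally abundant. RPKM, which divides by the exon union, is the scale used here to compare genes. The highest Sm gene of replicate 4 (Snrpb, 821 RPKM) was 8.60-fold above the lowest (Snrpd2, 95.6 RPKM). In replicate 7 the highest (Snrpg, 259 RPKM) was 20.5-fold above the lowest (Snrpd2, 12.6 RPKM). Which gene was lowest depends on the length used. With the longest transcript it was Snrpf in replicate 4 (106 RPKM, Snrpd2 at 176). In replicate 7 it was then Snrpd3 (23.0 RPKM, Snrpd2 at 23.3). The order also differed between embryos: Snrpg ranked first in replicates 1, 2, 5, 6 and 7, Snrpe in replicate 3 and Snrpb in replicate 4. With the longest transcript Snrpe (1106 RPKM) came before Snrpg (1096 RPKM) in replicate 5. With 1 library per embryo these ratios have no replicate check.

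**Figure D3:**
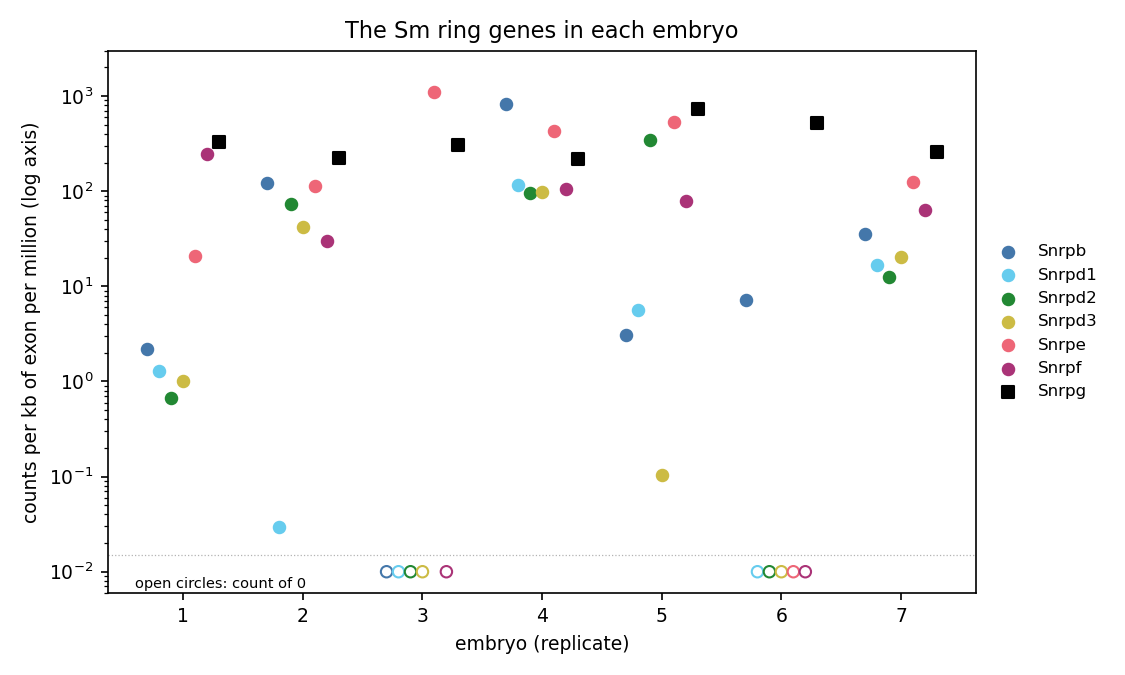
Levels of the 7 Sm ring genes in RPKM (log axis) in each embryo, with open circles at the bottom for a count of 0. Snrpg (black squares) lies between 216 and 736 in all 7 embryos, while each of the other Sm genes spans a far wider range or is uncounted in 1 embryo or more.

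Of the 4 genes for proteins particular to the U1 and U2 snRNPs, 4 were counted in replicates 2, 4 and 7, 3 in replicates 1 and 3, 2 in replicate 5 and 0 in replicate 6. Snrpa binds a stem loop of U1 snRNA, Snrpc helps U1 to bind the 5′ splice site, and the products of Snrpa1 and Snrpb2 form a pair on U2 snRNA. Snrpc, which had the smallest SD of the 4 genes (3.75 on the log2 scale), was at 0.874, 146, 33.1, 125, 23.5, 0 and 102 CPM in replicates 1 to 7. Snrpb2 had the largest SD (4.85) and the highest mean per length (26.0 ± 27.1 RPKM, SD, n = 7). Its levels of 178, 135, 63.4 and 142 CPM in replicates 1 to 4 contrast with 0 in replicates 5 and 6 and a single count (0.0584 CPM) among the 17122136 of replicate 7. Its partner Snrpa1 went a different way, with 0.874 CPM in replicate 1, 70.2 in replicate 5 and 29.1 in replicate 7. Snrpa was at 144 CPM in replicate 4 and had no count in replicates 1, 5 and 6.

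SF3a and SF3b are the parts of the U2 snRNP that clamp the branch point. Sf3b1, the scaffold of SF3b and a gene often mutated in myeloid disease, was counted in all 7 embryos at 202.8, 72.8, 590, 496, 68.01, 28.6 and 205 CPM in replicates 1 to 7. The lowest value rests on 4 counts in replicate 6. Its SD of log2 CPM was 1.78, rank 135 of the 11810 genes tested. That rank was 1907 in the authors' deposited log2 table and 7665 of 12236 after thinning. It was 111 among the 436 genes with a count in every embryo, whose median SD was 2.40. It was 93 among the 261 genes counted in every thinned library. Among 186 other genes of like mean level 20 had a smaller SD, and the median SD was 3.22. Per length, over 11370 bp of exon, the mean of Sf3b1 was 20.9 ± 19.4 RPKM (SD, n = 7), and that of Sf3b5, a small SF3b subunit, was 84.6 ± 90.3 RPKM. Sf3b5 was at 194, 990 and 519 CPM in replicates 1 to 3, 361 in replicate 4 and 207 in replicate 7, but at 1.81 CPM in replicate 5 and 0 in replicate 6.

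All 8 SF3a and SF3b genes were counted in replicates 2, 4 and 7, and from 2 to 5 of them in the other embryos. Sf3b3, which binds Sf3b1 and Sf3b5 in the complex, had the largest SD of the class (5.02). It stood at 152, 158 and 143 CPM in replicates 4, 5 and 7 and had 2 counts in replicate 2 (0.122 CPM) and 0 in replicates 1, 3 and 6. Replicate 2 was the embryo in which Sf3b5 was highest, with 16288 counts. Sf3b2, another large subunit, reached 1626 CPM in replicate 6 (227 counts) against 250 in replicate 4 and 0 in replicates 1 and 3. Sf3b4 ranged from 0 in replicates 3, 5 and 6 to 116 CPM in replicate 4. Of the SF3a trimer, Sf3a3 peaked at 613 CPM in replicate 5, where Sf3a1 and Sf3a2 had no count, and Sf3a2 peaked at 186 CPM in replicate 6 on 26 counts. Sf3a1 was highest in replicate 4, at 112 CPM. The exons of Sf3b3 overlap those of Cog4 on the other strand by 188 bp and those of Sf3a2 overlap Plekhj1 by 429 bp, and it is not stated whether the counting used strand.

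U2AF reads the end of the intron, its large subunit U2af2 the pyrimidine tract and its small subunit U2af1 the AG. U2af1 reached 28.02 CPM in replicate 2 and 126 in replicate 4, had 7 counts in replicate 7 (0.409 CPM) and none in the other 4 embryos. Its mean was 8.50 ± 18.1 RPKM (SD, n = 7) and its SD of log2 CPM 4.02. U2af2 was more even, with an SD of 2.94, at 6.99, 25.2, 0, 23.8, 0, 7.16 and 2.45 CPM in replicates 1 to 7. Neither subunit was counted in replicates 3 and 5, so both were below 4.13 CPM and 1.09 CPM there. Replicate 5 had 2772 counts of Prpf8 and 3196 of Snrpg in the same library.

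Among the 10 SR protein genes, Srsf2 (SC35), a protein of nuclear speckles, was the most abundant per length at 83.8 ± 103 RPKM (SD, n = 7). Its levels were 3.50, 629, 2.76, 716, 127, 0 and 257 CPM in replicates 1 to 7, high in the 3 deep libraries and low in replicates 1, 3 and 6. Srsf7 had the largest SD of the class, 4.82, with 402 CPM in replicate 4 and 389 in replicate 5 against 0 in replicates 3 and 6. Srsf4 had the smallest, 3.05, and an unlike order: 99.7, 8.08, 4.13, 44.9, 0, 107 and 7.65 CPM. Srsf4 was thus higher in replicates 1 and 6 than in the 3 deep libraries. Srsf3, the smallest SR protein, whose loss stops mouse embryos before the blastocyst, was at 583 CPM in replicate 4, 116 in replicate 2 and 77.6 in replicate 7, with 23 counts in replicate 5, 1 in replicate 6 and 0 in replicates 1 and 3.

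The remaining SR genes fell into several patterns. Srsf1 (SF2/ASF), which acts in both constitutive and alternative splicing, was counted in all embryos but replicate 6, from 11.4 CPM in replicate 1 to 297 in replicate 4. Srsf5 peaked in replicate 3 at 570 CPM and had a count in all but replicate 6. Srsf10, which turns into a general splicing repressor when it loses its phosphates, was highest in replicate 6 at 1389 CPM (194 counts) and next in replicate 3 at 593 CPM, and uncounted only in replicate 1. Srsf6 and Srsf9 peaked in replicate 4, at 357 and 211 CPM, and each was uncounted in 3 embryos. Srsf11 lay between 60.4 and 232 CPM in the 5 embryos where it was counted and at 0 in replicates 1 and 3. Exons of Srsf2 overlap those of Mfsd11 on the other strand by 288 bp, and Mfsd11 had 2528 counts in replicate 2. Those of Srsf4 overlap Gm12992 on the other strand by 1532 bp, and Gm12992 had no count in any embryo.

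Of the 6 PRPF genes, 6 were counted in replicates 2 and 4, 5 in replicate 7, 3 in replicate 3, 2 in replicates 1 and 5 and 0 in replicate 6. Prpf8, the U5 protein that cradles the catalytic centre, was counted in all but replicate 6, at 6.12, 75.6, 77.2, 190, 1003, 0 and 115 CPM in replicates 1 to 7. It had both the highest mean per length of the class (28.1 ± 47.7 RPKM, SD, n = 7) and its largest SD (4.03). In replicate 5 it made up nearly all of the class, since Prpf4 had 5 counts there and Prpf3, Prpf6, Prpf19 and Prpf31 had none. Prpf6, which bridges the parts of the U4/U6.U5 particle, reached 55.1 CPM in replicate 2 and 54.7 in replicate 4 and had no count in the other 5 embryos. In replicate 7 a count of 0 allows up to 0.175 CPM. Prpf31, which joins U4/U6 to U5, had 5637 counts (170 CPM) in replicate 4, 50 counts in replicate 2 and 3 counts in replicate 7. Its exons overlap those of Gm15927, which has no row in the count table, on the other strand by 984 bp. Prpf3, the partner of Prpf31 on U4/U6, reached 96.8 CPM in replicate 2 and 41.2 in replicate 4 and was otherwise at 1.81 CPM in replicate 7 or uncounted. Prpf4 was counted in 5 embryos with 63.5 CPM at most. Prpf19, the ubiquitin ligase that activates the spliceosome, had the smallest SD of the class (2.93) and a highest level of 47.0 CPM, in replicate 4. In replicates 2, 4 and 7, the 3 deepest libraries, 5 pairs of member and embryo had at most 3 counts: Snrpd1 and Sf3b3 in replicate 2 (31.3% of all genes tested were at or under 3 counts there), none in replicate 4 (17.2%), and Snrpb2, Prpf6 and Prpf31 in replicate 7 (34.0%).

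**Figure D4:**
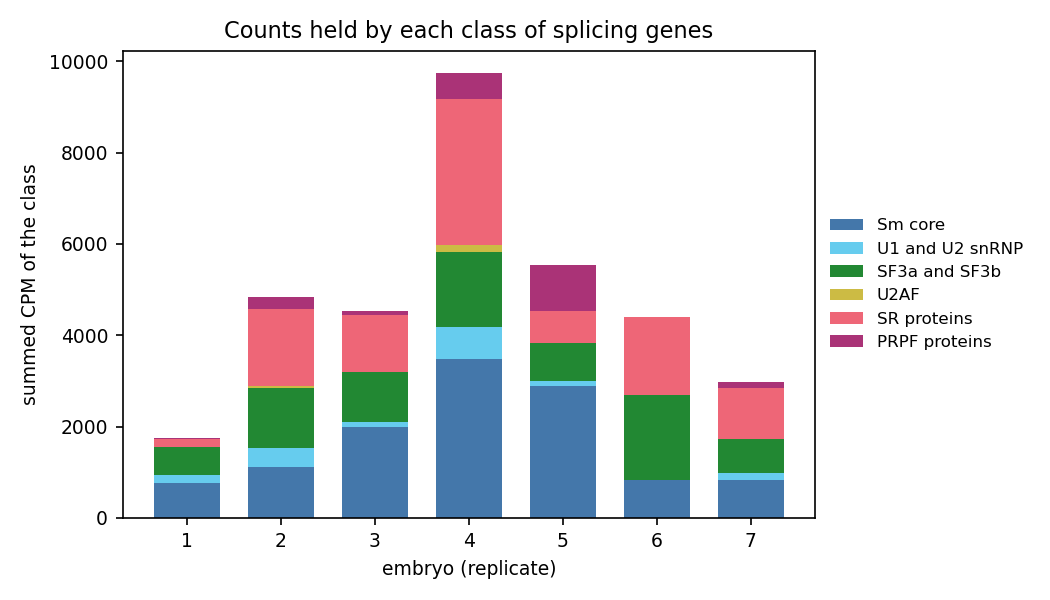
Summed CPM of each class of splicing genes in each embryo, stacked, so that the bar height is the CPM of all 37 genes. The bar of replicate 4 is the tallest (9744 CPM) and that of replicate 1 the lowest (1741 CPM), and PRPF genes are visible mainly in replicate 5.

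The classes took different parts of the members' counts from embryo to embryo. Sm genes held 44.1, 22.9, 44.0, 35.6, 52.3, 19.1 and 28.1% of them in replicates 1 to 7, and SR genes 10.4, 34.8, 27.3, 32.9, 12.7, 38.7 and 37.3%. The Sm share was thus highest and the SR share second lowest in replicate 5. SF3a and SF3b genes held from 15.2% in replicate 5 to 42.1% in replicate 6, where the share was 8.03% without Sf3b2. In replicate 2 their share was 26.8%, and 7.98% without Sf3b5. PRPF genes held 18.1% in replicate 5 (95% Clopper-Pearson interval 17.5 to 18.7) and at most 5.82% elsewhere. The median Sm share over embryos was 35.6%, and 22.8% when the member with the most counts was left out of each embryo.

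Spread between embryos was large for most members, on a scale where counts of 0 weigh heavily. Every count of 0 was set to -2.07 log2 CPM in every library, while 1 count in replicate 6 stood at 2.17 (Sf3a1). The members' SD of log2 CPM had a median of 4.14, beside 3.63 over all 11810 genes tested. Of the 37 members 6 had an SD below that overall median (50.0% of all genes do). The members had a higher mean level, with a median of 3.51 log2 CPM beside 0.85 for all genes. Among genes with a mean of 10 CPM or more the median SDs were 4.20 for 35 members and 4.06 for all. These 6 were Snrpg, Sf3b1, U2af2, Srsf4, Prpf4 and Prpf19. Without replicates 3 and 6 the order turned, with 3.71 for the members and 3.80 for all genes, and after thinning the values were 1.79 and 1.22. The test of spread asked whether a gene varied more, by its quasi-likelihood dispersion, than genes of similar mean count. In edgeR 0 of the 37 members and 0% of all genes tested had an adjusted p under 0.05, the lowest adjusted p being 0.869 for both. Unadjusted, 0 members and 0.567% of all genes were under 0.05, and DESeq2 marked 0 genes as dispersion outliers. The common dispersion over all genes was 9.03. On simulated counts with about that dispersion neither this test nor the slope test below recovered the genes that had been changed, so 0 calls do not show that a gene was stable or unrelated to Rpl13a.

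**Figure D5:**
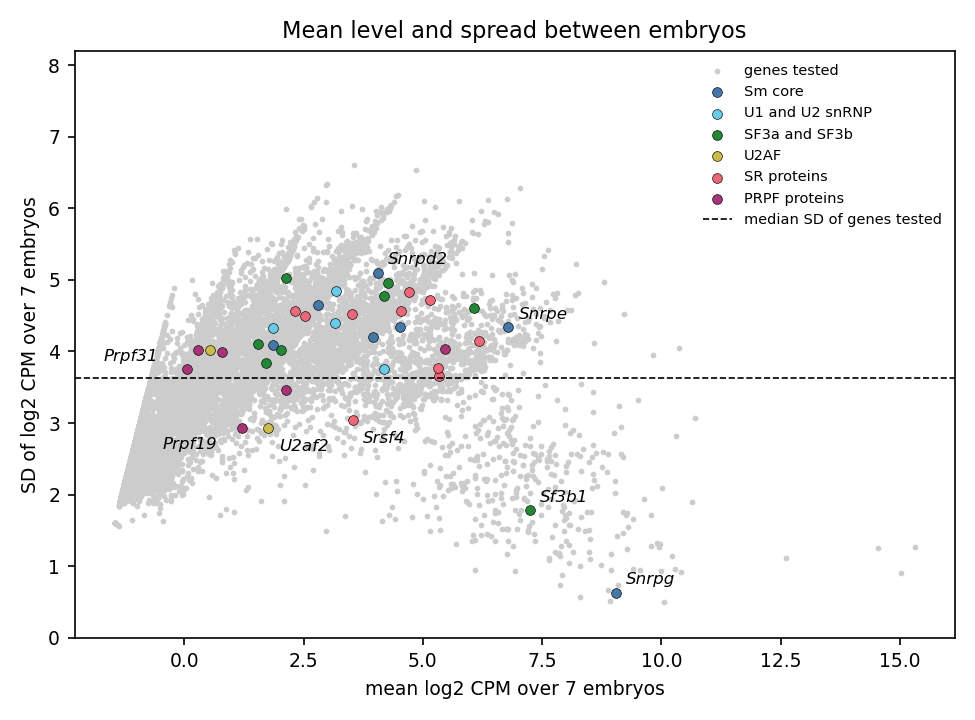
Mean (x axis) and SD (y axis) of log2 CPM over the 7 embryos for the 11810 genes tested (grey) and the 37 members (coloured by class), with the median SD of all genes as a dashed line. Snrpg and Sf3b1 lie at the lower right, with SDs of 0.63 and 1.78, and most other members lie above the dashed line.

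Rpl13a, the gene mutated in the cross, was at 86.5, 119, 5.51, 530, 3.26, 7.16 and 23.5 CPM in replicates 1 to 7. No embryo was given a genotype from these values. The value in replicate 6 was 1 count, and 1 count equalled 1.38 CPM in replicate 3 and 0.362 CPM in replicate 5. Rpl13a thus rests on few counts in these embryos, and the slope test does not allow for that error. Fitted against the log2 CPM of Rpl13a with edgeR's quasi-likelihood test, 29 of the 37 members had a positive slope (78.4%), as did 76.1% of all genes tested. With Benjamini-Hochberg adjustment 0 members passed, and 0% of all genes did. Unadjusted, 5 members had a p under 0.05, which is 13.5% of them beside 20.0% of all genes tested. These were Prpf31, U2af1, Snrpb, Prpf6 and Prpf3, all with positive slopes and all highest in replicate 2 or 4. The slope of Prpf31 was 2.04 log2 units per log2 unit of Rpl13a (edgeR adjusted p 0.113) and that of Prpf6 2.26 (adjusted p 0.169). Without replicate 7, Prpf31 passed (adjusted p 0.0451), along with 1726 of the 11219 genes then tested. DESeq2 called 481 genes and 0 members, so the number of calls depends on the tool and on replicate 7. Snrpg and Sf3b1 had slopes of -0.11 (adjusted p 0.922) and 0.17 (adjusted p 0.860) in the edgeR fit.

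Other splicing genes, 139 genes in 8 lists, were also counted most widely in replicate 4 (137 of 139), replicate 2 (127) and replicate 7 (119), and least in replicate 6 (35). Of all genes tested 84.0, 72.1, 69.5 and 14.8% had a count in these embryos, a comparison not matched for level. Of the 137 that could be tested, 0 passed the edgeR test of spread or of slope. Unadjusted, 0 and 15 had a p under 0.05 in these edgeR tests, beside 0.567 and 20.0% of all genes tested. A count in every embryo was found for 15 of the 139, beside 3.69% of all genes tested. These were the tri-snRNP gene Snrnp27, the catalytic step genes Crnkl1, Cwc15 and Aqr, the exon junction gene Rnps1, the SR-related genes Srrm2, Rbm39, Srpk2 and Son, and the hnRNP-related genes Hnrnpa1, Hnrnpab, Hnrnpf, Hnrnpu, Ptbp1 and Pcbp1. Srrm2, a scaffold of nuclear speckles that was singled out after its values were seen, had an SD of 0.88, rank 8 of all genes tested. The genes of Sm assembly include the SMN complex that loads the ring onto snRNA. Of these 15 genes, 15 were counted in replicate 4, 2 in replicate 1 (41.7% of all genes tested) and 0 in replicate 6. Of 10 Lsm genes, which encode relatives of the Sm proteins in the rings of U6 snRNA, of cytoplasmic mRNA decay and of the U7 snRNP, 10 were counted in replicates 2 and 4 and 1 in replicate 6.

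The gene with the highest mean CPM was taken from each of these lists, a choice that favours genes with 1 very high library. The U4-binding gene Nhp2l1 was at 2957 CPM in replicate 5 and at 4.37 CPM in replicate 1. Cwc15, of the Prp19-associated group, was at 1962 CPM in replicate 5 and from 48.2 to 210 CPM elsewhere. Magoh, of the exon junction complex, was at 1360.5 CPM, the intron regulator Ptbp1 at 1196 CPM, Gemin7 at 998 CPM and Pdcd7 of the minor spliceosome at 479 CPM in that embryo. The SR kinase gene Srpk2 peaked in replicate 6 at 2299 CPM, and the Lsm8 gene, listed under its older symbol Naa38, in replicate 1 at 433 CPM.

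Promoter sequences are given for the members counted in every embryo and for 2 of those counted in the fewest. RefSeq windows of GRCm38.p6, from 250 bases before to 50 bases after an annotated start, were found for 32 of the 37 members, with 40 windows in all, and not for Snrpb, Snrpd1, Sf3b4, Sf3b5 and U2af2. They were searched on both strands for 7 short motifs: the ETS motif CCGGAAG, the NRF1 motif, the CRE TGACGTCA, the CCAAT box CCAAT, the TATA box TATAAA, the YY1 motif and the GC box GGGCGG. For Snrpg and Prpf6 the RefSeq start lies downstream of the start of the GENCODE gene. That gene begins at chr6:86371304 for Snrpg, so most of its window lies inside it. For Prpf6 it begins at chr2:181591868, ahead of the whole window. Matches are in capitals, on either strand.
Snrpg, chr6:86371290-86371589, plus strand: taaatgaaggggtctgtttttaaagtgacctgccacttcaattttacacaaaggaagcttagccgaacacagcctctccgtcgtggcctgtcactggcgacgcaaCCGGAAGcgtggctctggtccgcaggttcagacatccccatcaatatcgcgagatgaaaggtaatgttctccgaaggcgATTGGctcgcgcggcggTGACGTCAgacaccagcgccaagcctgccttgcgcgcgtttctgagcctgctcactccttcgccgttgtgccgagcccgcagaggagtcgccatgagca
Sf3b1, chr1:55027429-55027728, minus strand: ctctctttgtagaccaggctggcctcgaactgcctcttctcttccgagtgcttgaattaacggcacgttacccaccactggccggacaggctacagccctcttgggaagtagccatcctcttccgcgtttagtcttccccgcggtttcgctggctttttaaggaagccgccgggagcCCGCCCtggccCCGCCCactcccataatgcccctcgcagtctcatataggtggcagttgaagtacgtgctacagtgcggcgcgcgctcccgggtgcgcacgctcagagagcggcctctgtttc
Prpf6, chr2:181601069-181601368, plus strand: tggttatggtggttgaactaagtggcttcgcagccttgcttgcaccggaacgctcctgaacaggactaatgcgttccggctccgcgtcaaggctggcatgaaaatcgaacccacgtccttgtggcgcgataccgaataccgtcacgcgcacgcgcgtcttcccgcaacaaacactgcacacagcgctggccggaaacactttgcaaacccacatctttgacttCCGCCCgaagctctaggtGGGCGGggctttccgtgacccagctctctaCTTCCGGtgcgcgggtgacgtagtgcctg
Prpf31, chr7:3629735-3630034, plus strand: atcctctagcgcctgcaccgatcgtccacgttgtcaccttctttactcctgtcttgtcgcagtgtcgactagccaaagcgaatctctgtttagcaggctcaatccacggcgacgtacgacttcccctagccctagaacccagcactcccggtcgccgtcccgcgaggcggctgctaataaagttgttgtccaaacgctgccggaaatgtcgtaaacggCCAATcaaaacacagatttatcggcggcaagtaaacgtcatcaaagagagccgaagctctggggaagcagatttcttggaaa

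The ETS letters were found in 19 of the 40 member windows (47.5%), among them those of Snrpg and Prpf6, and in 8.86% of all 32851 windows of this length. The GC box was in 57.5% of member windows and 35.7% of all, the CCAAT box in 40.0% and 37.4%, the TATA box in 10.0% and 13.6%, the CRE in 5.0% and 1.79%, the NRF1 motif in 2.5% and 0.971% and the YY1 motif in 2.5% and 0.633%. Of the 4 windows shown, those of Snrpg and Prpf6 hold the ETS letters, those of Sf3b1 and Prpf6 the GC box and those of Snrpg and Prpf31 the CCAAT box. A match describes letters in a window and not the binding of a factor.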

How the data were processed

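Single embryos were flushed from the tract, lysed and heated, and RNA was purified, brought to like amounts and turned into cDNA by oligo-dT capture with SMART-Seq v4 before Nextera XT library making, per the labels' protocols. The authors used HISAT2 2.0.5, featureCounts 1.5.0-p2, Subread, limma and GRCm38, per the submitters' processing notes; for order, settings, annotation and strand: not given in the sources used here. Whole-number counts per gene symbol for 7 embryos make up the deposited raw table. The deposited log2 table was recomputed here from the counts by limma's voom with quantile normalization, with a largest difference of 4.97e-14.

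Counts were tested in edgeR 4.0.16 (limma 3.58.1, DESeq2 1.42.0, R 4.3.3) with TMM factors. The log2 CPM used a prior count of 2, which put every count of 0 at -2.07. Genes of mean CPM 1 or more were kept. The F test of dispersion (one-sided) and the quasi-likelihood slope test used Benjamini-Hochberg adjustment at 0.05 over all genes, and both, tested on simulated data, recovered changed genes at a low dispersion but none at the dispersion of these data. Lengths, positions and copies came from GENCODE M21 (BLAST 2.17.0); RPKM used the union of exons. Named non-members were the gene of highest mean CPM per list; others were chosen after their values were seen. The members, lists and tests were chosen with earlier results of these data known.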

Additional observations from a re-analysis of the deposited data

Results flagged for a closer look

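Of 45 sets of 7 embryo values, 4 had an end value whose gap to the next exceeded 0.568 of the range. Chance gives about 5% of sets, a rate that does not allow for embryos tied at the value set for no count. Snrpg was at 10.44 log2 CPM in replicate 5, with 8.96 as the next highest. Srsf5 was at -2.07 log2 CPM in replicate 6, where it had no count, with 4.17 as the next lowest. That low value is the one set for every gene without a count. In replicate 6 the lack of a count allows up to 21.5 CPM, above the 14.8 CPM of Srsf5 in replicate 5. The flag for Srsf5 thus rests on the set value and cannot show that its level was lower in replicate 6. Prpf31 was at 7.86 log2 CPM in replicate 4, with 2.01 in the next embryo. The PRPF genes held 18.1% of the members' counts in replicate 5, with 5.82% as the next highest.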

How the results depend on the processing

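No paired analysis was possible because the labels give 1 group. With edgeR, limma and DESeq2 the test of spread gave 0 genes and 0 members in each of 16 alternatives, with from 9 to 114 genes at an unadjusted p under 0.05 where the tool gives one. The Rpl13a slope test gave 0 genes in 12 of 15 alternatives. With single embryos left out it gave from 0 to 1726 genes, 3 without replicate 5 and 1726 without replicate 7, and from 0 to 1 member, and DESeq2 gave 481 genes and 0 members. The members' median SD was 1.79 after thinning (1.22 for all genes) and 5.03 with a prior count of 0.5 (4.49 for all genes), and from 3.70 to 4.42 with single embryos left out. Members counted in every embryo numbered from 2 to 9 with single embryos left out, 9 without replicate 6, and 17 without replicates 3 and 6. The shares of all genes tested in these smaller sets were not computed. The Sm share fell to 22.8% without the top member of each embryo. The rank of Snrpg by SD, chosen after seeing the data, was from 1 to 12 with single embryos left out, 16 without replicates 3 and 6, 12 with DESeq2 size factors, 2 in the authors' log2 table, 920 of 14964 with no filter and 2815 of 12236 after thinning, where its SD was 0.62 and the median SD of all genes 1.22. Among the 261 genes counted in every thinned library it was 5. The rank of Sf3b1 was from 104 to 279 with single embryos left out, 1907 in the authors' log2 table, 2879 with no filter and 7665 after thinning. Among the same 261 genes it was 93. The cause of these shifts was not tested. Median per-length levels with the longest transcript in place of the exon union moved by less than 1 SD over embryos for 36 of 37 members. That SD is large, so the rule is a weak check. The median of Snrpe went from 125 to 257 RPKM within it, and the order of Sm genes changed as given above. Leaving ribosomal RNA and Lars2 out of the total does not touch class shares. Depth limits all statements on replicates 1, 3 and 6.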
